A study of Mus musculus with 24 samples.

Results

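Expression of 10 genes of the macrophage program was followed in mouse CT26 tumors with and without Sun1. The genes were taken by name: 7 macrophage markers (Adgre1, Cd68, Csf1r, Mrc1, Msr1, Lyz2 and Aif1) and the 3 chains of complement C1q (C1qa, C1qb and C1qc). All 10 were found among the 35976 genes of the deposited tables, and all 10 passed the filter on low counts in every comparison.

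CT26 is a colon carcinoma line of BALB/c mice, and Sun1 encodes an inner nuclear membrane protein of the LINC complex, which links the nucleus to the cytoskeleton. Whole tumors were collected 14 days after subcutaneous injection of 1000000 cells and gave 7 libraries from the Sun1 knockout line and 8 from control line 1. Tumor cells purified from such tumors with an isolation kit gave 2 libraries each from the knockout, control line 1 and control line 2, and the same lines in culture gave 1 library each. The labels call the control lines wildtype and name 1 knockout line, so loss of Sun1 and other properties of that line cannot be told apart. They say neither whether replicates are animals or pools nor the age of the mice, so p-values measure the spread between these samples only, which may be technical. The host mice carried no labelled change in genotype.

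Sun1 stood at 50.5 to 64.8 CPM (expected counts scaled to the library total) in the knockout tumors and at 169 to 192 CPM in the control tumors, and the groups did not overlap. Expected counts per library summed to 14140769 to 24651279 in tumors, 17068356 to 22593612 in purified cells and 18832201 to 20716917 in culture. Of 6 epithelial markers, Epcam and Krt19 were at 0 in every purified library, although the labels call CT26 a colon cancer line. The sum of the 6 was 29.5 to 56.3 CPM in purified control cells, most of it Krt18, and 0.823 to 1.06 CPM in purified knockout cells.

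Macrophages in tumors come from resident cells and from blood monocytes that mature under signals through the CSF1 receptor. They clear debris through scavenger and lectin receptors, digest bacterial walls with lysozyme and present antigen. Tissue macrophages are also a main source of C1q, the recognition part of the classical complement pathway. A C1q molecule is built from A, B and C chains, so its assembly needs all of C1qa, C1qb and C1qc.

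The 3 C1q genes are neighbours on mouse chromosome 4 in the GRCm38.p6 annotation of RefSeq, and their gene models span 18.7 kb. C1qb lies at chr4:136880126-136886200, C1qc at chr4:136889801-136892936 and C1qa at chr4:136895916-136898844. No other gene of the annotation table lies between them or within 20 kb. RefSeq promoter windows were not available for C1qa, Adgre1, Csf1r and Msr1. The 250 bases before each start site are shown for C1qb and C1qc, and any part of this sequence in their levels was not tested. Both are on the minus strand, at chr4:136886201-136886450 for C1qb and chr4:136892915-136893164 for C1qc. Capitals mark GAGGAA or its reverse complement TTCCTC, the core of sites bound by PU.1, the macrophage transcription factor encoded by Spi1.
C1qb: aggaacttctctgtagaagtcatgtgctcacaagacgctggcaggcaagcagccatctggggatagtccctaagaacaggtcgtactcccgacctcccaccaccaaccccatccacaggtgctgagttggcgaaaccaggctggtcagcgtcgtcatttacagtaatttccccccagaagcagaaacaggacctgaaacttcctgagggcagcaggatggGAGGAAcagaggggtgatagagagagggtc
C1qc: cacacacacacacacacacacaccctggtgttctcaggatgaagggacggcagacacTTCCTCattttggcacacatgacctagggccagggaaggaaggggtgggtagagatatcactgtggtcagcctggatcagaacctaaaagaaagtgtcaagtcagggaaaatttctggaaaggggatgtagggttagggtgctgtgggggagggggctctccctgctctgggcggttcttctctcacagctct

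The motif starts 30 bases before the C1qb start site on the gene's own strand. In C1qc it starts 193 bases before the start site on the opposite strand. In windows that run 50 bases past the start site, GAGGAA on either strand was found 2 times for Cd68, 3 times for Mrc1, 1 time for Aif1 and 0 times for Lyz2. Of all 32851 promoter windows of that length, 28.276% hold it, so a single match is common and describes the letters only.

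In whole tumors Aif1 and the C1q chains had the largest differences between the genotypes. Of the 10 members, 3 rose in knockout tumors and 0 fell in edgeR's quasi-likelihood test, where 18.1% of all genes tested rose and 19.0% fell. The 3 were Aif1, C1qa and C1qc. The median log2 fold change of the members was 0.42, against 0.0092 over all genes tested. In bulk RNA, fewer or more macrophages and less or more RNA of a gene per macrophage cannot be told apart.

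Aif1 (chr17:35170986-35176083) encodes IBA1, an actin-bundling protein of macrophages and microglia. It ranged from 69.9 to 121 CPM in knockout tumors with a median of 75.7, and from 15.8 to 59.4 CPM in control tumors with a median of 33.7. Every knockout tumor lay above every control tumor. The groups of 3.12% of all genes tested stood apart in that direction, and Aif1 was the single member among them. Its log2 fold change was 1.32 ± 0.22 (SE; n = 7 and 8; edgeR adjusted p = 0.000543), a 2.50-fold difference, and it stayed past the threshold in 21 of 21 alternative analyses.

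C1qc, the C chain, ranged from 252 to 532 CPM in knockout tumors with a median of 367, and from 116 to 349 CPM in control tumors with a median of 180. The groups overlapped, and 5 of the 7 knockout tumors lay above the highest control tumor. C1qc rose by 0.91 ± 0.25 on the log2 scale (SE; adjusted p = 0.0127 in edgeR). It was called in 20 of 21 alternatives, and the exception was the fit with a CD45 term described further on.

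C1qa, the A chain, had a lowest value of 246, a median of 349 and a highest value of 601 CPM in knockout tumors. The control tumors had 116, 205 and 388 CPM in the same order. All 7 knockout tumors lay above the control median, and 2 lay above the highest control tumor. The log2 fold change of C1qa was 0.79 ± 0.28 (SE; edgeR adjusted p = 0.0411). This call was fragile: it was kept in 9 of 21 alternatives and lost in 10 of the 15 fits that left out 1 tumor (knockout tumors 1, 2, 3, 5 and 7 and control tumors 1, 3, 4, 6 and 8), with log2 fold changes from 0.65 to 0.95 over all 15.

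C1qb, the B chain, ranged from 136 to 368 CPM in knockout tumors (median 228) and from 87.3 to 261 CPM in control tumors (median 143). The ranges overlapped widely, and 2 knockout tumors exceeded the highest control. The log2 fold change was 0.73 ± 0.27 (SE), close to those of the other chains, but its adjusted p in edgeR was 0.0522. C1qb was past the threshold in 6 of 21 alternatives, among them those without knockout tumor 4 (adjusted p = 0.0448 in edgeR), without knockout tumor 6 (0.0321) or without control tumor 5 (0.0172). The authors' deposited table gives the 3 chains adjusted p-values of 0.0142 for C1qa, 0.0314 for C1qb and 0.00318 for C1qc, after its sign was turned to knockout over control.

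Adgre1 (chr17:57358581-57483529) encodes F4/80, the adhesion receptor most used to mark mouse macrophages. It ranged from 51.2 to 163 CPM in knockout tumors (median 112) and from 35.0 to 124 CPM in control tumors (median 67.4). The highest knockout tumors were above all controls, and the lowest knockout tumor was below the control median. The log2 fold change of 0.64 ± 0.28 (SE) did not pass the test (edgeR adjusted p = 0.0853), and it did pass without knockout tumor 6 (0.0355) or without control tumor 5 (0.0315).

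Cd68 (chr11:69664213-69666170) encodes a glycoprotein of the macrophage lysosome. It had a mean of 54.0 ± 12.9 CPM in knockout tumors (SD, n = 7) and 51.8 ± 8.41 CPM in control tumors (SD, n = 8). The groups lay on top of each other and differed by 0.07 ± 0.15 on the log2 scale (SE; adjusted p = 0.755 in edgeR). Csf1r, the receptor for the growth factors CSF1 and IL34, had 105 ± 36.0 CPM (SD) in knockout tumors and 99.9 ± 43.5 CPM in control tumors. Its log2 fold change was 0.09 ± 0.30 (SE; edgeR adjusted p = 0.845), and it changed sign when knockout tumor 5 (-0.014) or control tumor 3 (-0.0037) was left out.

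The scavenger receptor Msr1 (chr8:39543232-39642750), which takes up modified lipoproteins, had 153 ± 27.2 CPM in knockout tumors and 141 ± 35.9 CPM in control tumors (SD). Its log2 fold change was 0.13 ± 0.16 (SE; edgeR adjusted p = 0.562). Mrc1 (chr2:14229414-14332023), the mannose receptor CD206 often used as a marker of alternatively activated macrophages, was the one member with a negative value, -0.41 ± 0.28 (SE; edgeR adjusted p = 0.263). Its knockout tumors ranged from 34.3 to 90.2 CPM and its control tumors from 56.7 to 204 CPM, so no knockout tumor exceeded the highest control and the groups still overlapped. Lyz2 (chr10:117277541-117282272), lysozyme M, had 802 ± 228 CPM in knockout tumors and 699 ± 184 CPM in control tumors (SD). Its log2 fold change was 0.21 ± 0.21 (SE; edgeR adjusted p = 0.462), and its close copy Lyz1 was listed at 0.743 to 4.36 CPM in the tumors. How reads shared by the copies were split was not tested.

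**Figure D1:**
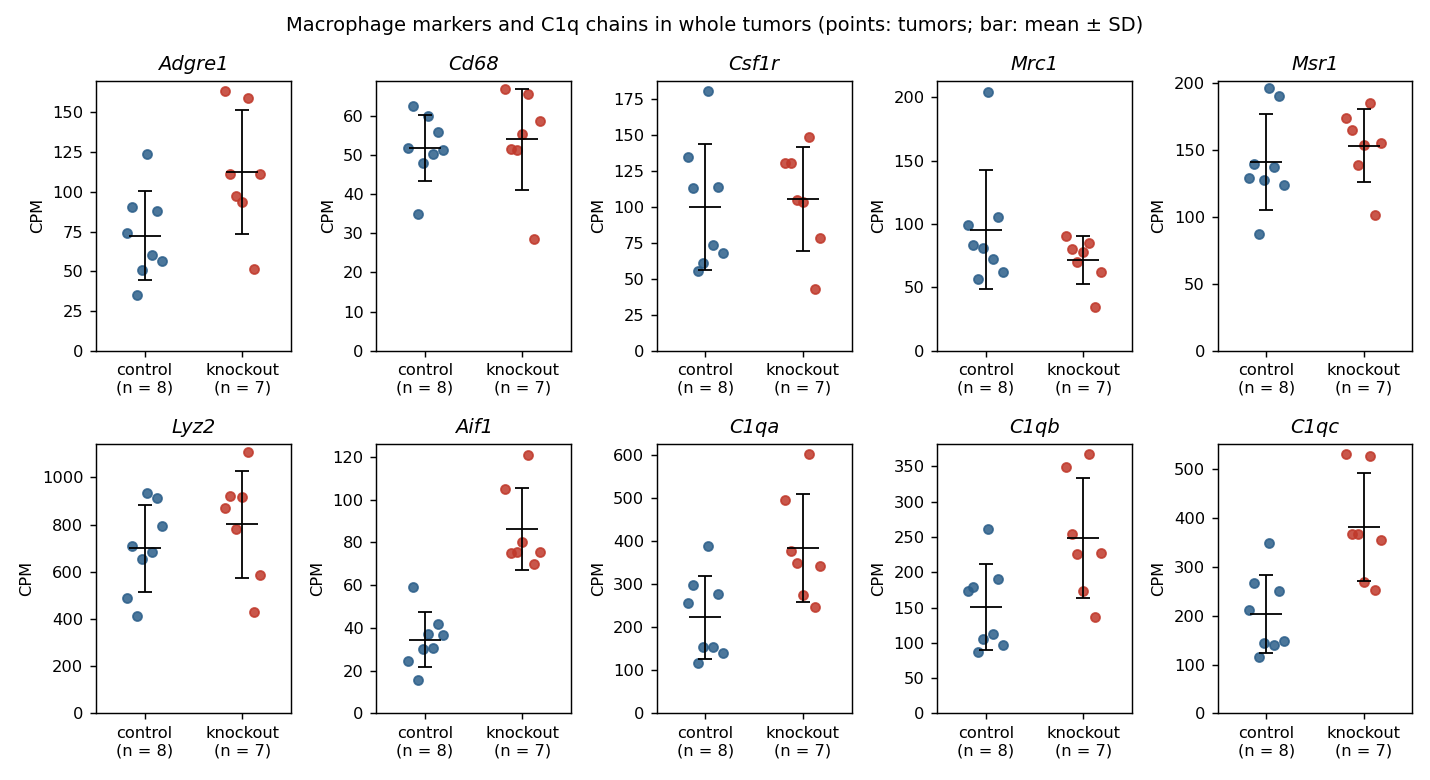
CPM of each of the 10 genes (vertical axes, linear and starting at 0) in 8 control and 7 knockout tumors; points are tumors, long bars are means and short bars the SD. The 2 groups of Aif1 do not overlap, with 15.8 to 59.4 CPM against 69.9 to 121 CPM, and the groups of the other 9 genes overlap.

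Single tumors stood out for all members together. Knockout tumor 6 was the lowest knockout tumor for all 10 genes, and control tumor 3 was the lowest control tumor for all 10. Knockout tumors 5 and 1 were highest in their group for 6 and 4 of the genes, and control tumors 5 and 2 for 8 and 2. Across the 15 tumors the members took 0.0992% to 0.347% of all expected counts.

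On the deposited TPM scale, which accounts for gene length, Lyz2 was the most abundant member with a mean of 1162 TPM over 15 tumors, rank 138 of 35976 genes. C1qc (447 TPM), C1qa (446) and C1qb (302) came next, ahead of Aif1 at 120 TPM. Cd68 (69.3 TPM) and Msr1 (67.2 TPM) followed, then Adgre1 (35.6 TPM) and Csf1r (34.1 TPM). Mrc1 was last with 19.1 TPM, rank 4940. The neighbours C1qc and C1qa, Cd68 and Msr1, and Adgre1 and Csf1r differed by far less than their ranges over the tumors.

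The C1q chains kept nearly fixed proportions while their level varied. C1qa ran from 171 to 867 TPM over the 15 tumors, yet the ratio of C1qa to C1qb stayed between 1.29 and 1.76 (mean 1.47 ± 0.117 SD). The ratio of C1qa to C1qc stayed between 0.890 and 1.15 (mean 0.998 ± 0.0798 SD). C1qc relative to C1qb was 1.59 ± 0.141 in knockout tumors and 1.38 ± 0.109 in control tumors (SD), and the highest single ratio was that of knockout tumor 6, 1.87. The 3 transcripts were thus present at like levels, with C1qb somewhat below the others in every tumor.

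**Figure D2:**
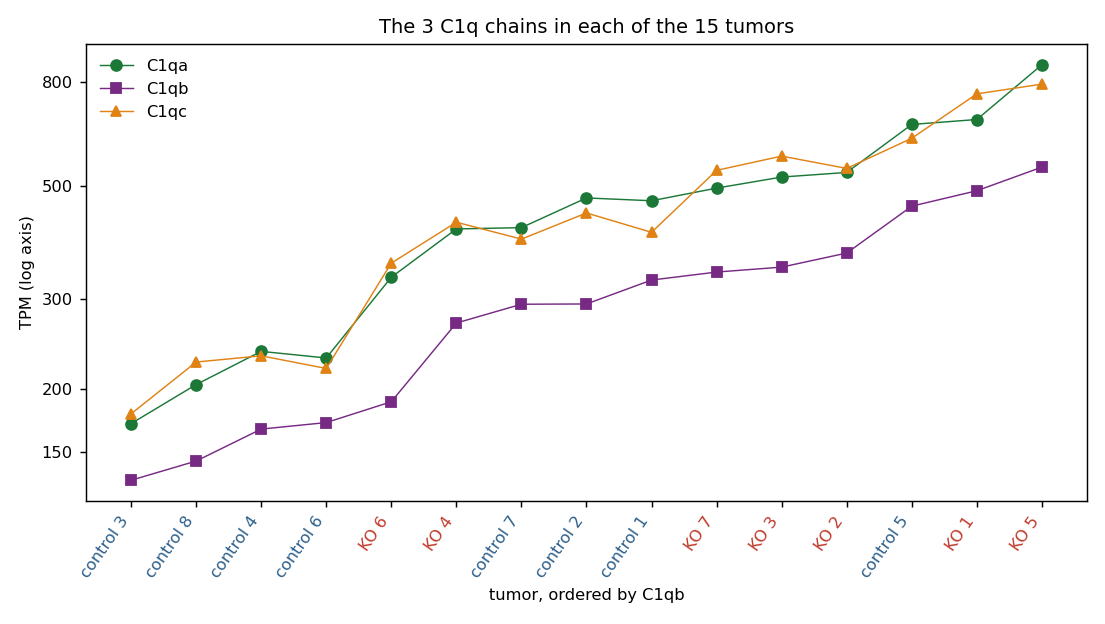
TPM of C1qa, C1qb and C1qc (vertical axis, log scale) in each of the 15 tumors, ordered by C1qb along the horizontal axis, with control tumors named in blue and knockout tumors (KO) in red. The lines run side by side, with C1qb lowest in each tumor, from control tumor 3 (132 TPM of C1qb) to knockout tumor 5 (545 TPM).

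How closely 2 members moved together was described by the SD of their log2 ratio over the 15 tumors, which is 0 for a fixed ratio; the tumors share genotype differences and depth, so no test was made. The 3 pairs of C1q chains were the tightest of the 45 pairs, at 0.11 for C1qa with C1qb, 0.12 for C1qa with C1qc and 0.16 for C1qb with C1qc. Adgre1 with C1qb came next at 0.17, then Cd68 with Msr1 at 0.19 and Msr1 with Lyz2 at 0.23. Aif1 was in the 3 loosest pairs, with Mrc1 (1.04), Csf1r (0.85) and Cd68 (0.77). C1qb alone had an SD of 0.65 on the log2 scale. Cd68 (0.33), Msr1 (0.33) and Lyz2 (0.43) varied least on their own, so their ratios had little room to vary. By this measure the C1q chains lay near Adgre1, Cd68 near Msr1 and Lyz2, and Aif1 farthest from Mrc1. That order also followed the genotype differences of mean log2 CPM. These were 0.65 to 0.95 for Adgre1 and the C1q chains, 0.03 to 0.19 for Cd68, Msr1 and Lyz2, 1.38 for Aif1 and -0.36 for Mrc1. It is therefore not separate from the difference between the genotypes.

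**Figure D3:**
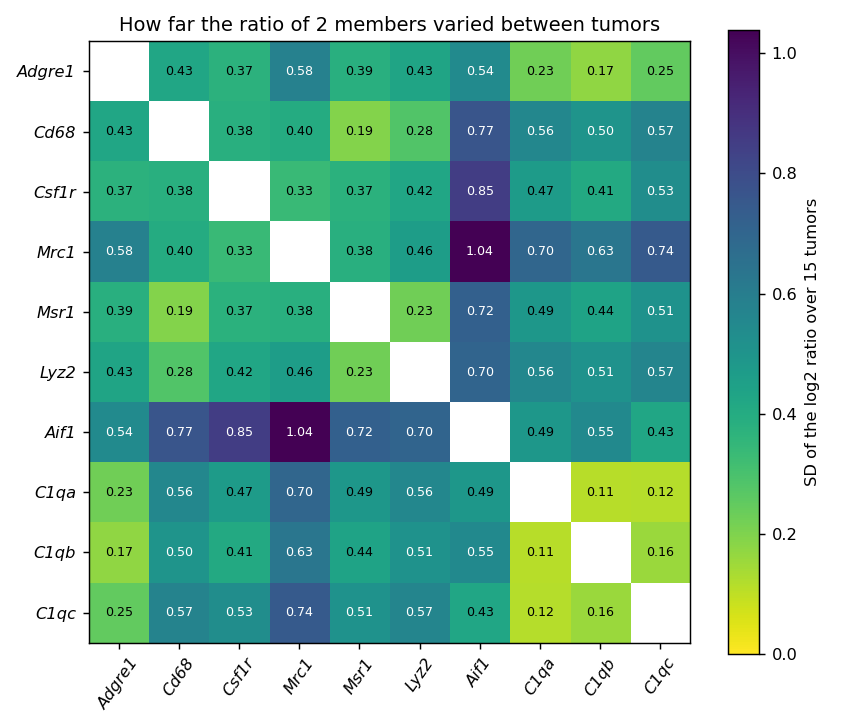
SD of the log2 ratio of each pair of members over the 15 tumors (both axes list the genes; colour and printed values give the SD, where 0 is a fixed ratio). The C1q pairs hold the smallest values (0.11, 0.12 and 0.16) and Mrc1 with Aif1 the largest (1.04).

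Among 10239 genes that averaged 5 CPM or more over the tumors, the genes most like C1qb by the same measure were Pld4 (0.17), Rab3il1 (0.18), Lair1 (0.21), Clec4a3 (0.22) and Tlr7 (0.23). Lair1 encodes an inhibitory receptor that binds collagen and, as background, also C1q, and Tlr7 an endosomal sensor of single-stranded RNA. The genes most like Adgre1 were Rassf4 (0.15), Tlr8 (0.19), Pld4 (0.19), Frmd4b (0.19) and Mpeg1 (0.20), of which Mpeg1 encodes the pore-forming protein perforin-2 of macrophages. Pld4 was on both lists.

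Other leukocyte genes also differed between the tumor groups. Ptprc, which encodes the pan-leukocyte antigen CD45, ranged from 156 to 241 CPM in knockout tumors and from 72.2 to 153 CPM in control tumors, without overlap (log2 fold change 0.62 ± 0.14 SE; edgeR adjusted p = 0.00300). All 4 leukocyte markers rose, with summed levels of 422 to 674 CPM against 238 to 443 CPM. All 5 T cell markers rose, with sums of 66.0 to 123 CPM against 26.5 to 60.0 CPM. All 4 monocyte markers rose (384 to 546 CPM against 230 to 349 CPM), as did all 4 mast cell markers (53.7 to 114 CPM against 33.4 to 59.4 CPM). Plac8, the most abundant monocyte marker with means of 177 and 137 CPM in knockout and control tumors, was also abundant in purified cells. There it had means of 125 CPM in the knockout, 87.1 CPM in control line 1 and 71.5 CPM in control line 2, and it was higher in the knockout (log2 fold change 0.66 ± 0.15 SE; edgeR adjusted p = 0.0424). Of 6 dendritic cell markers tested 2 rose, of 3 neutrophil markers tested 0 rose and 1 fell, and no B cell marker passed the filter. Of 4 endothelial markers 1 rose, and of 4 fibroblast markers 1 rose (Dpt) and 1 fell (Dcn). Of all genes tested, 18.1% rose and 19.0% fell. Both Dpt and Dcn were also present in purified cells. Dpt had means of 16.1 CPM there in the knockout, 1.59 CPM in control line 1 and 2.29 CPM in control line 2. Dcn had 76.3, 523 and 51.5 CPM in the same order. In purified cells Dpt was higher in the knockout (log2 fold change 3.05 ± 0.26 SE, edgeR adjusted p = 0.000541) and Dcn was not called (-1.90). The part of these cell types in the members' differences was not tested beyond the ratios and the fit with CD45 that follow.

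Relative to CD45 the members separated into different directions. Aif1 per Ptprc was 0.456 ± 0.0339 in knockout tumors and 0.273 ± 0.0562 in control tumors (ratio of CPM, SD), with no overlap. Cd68 per Ptprc was 0.287 ± 0.0540 against 0.425 ± 0.0281, and Mrc1 per Ptprc 0.379 ± 0.0816 against 0.767 ± 0.277, both lower in every knockout tumor than in any control tumor. The ratios of the other 7 members overlapped between the groups. Of all genes tested, 0.204% had ratios to Ptprc that were higher without overlap and 26.8% had ratios that were lower without overlap, so the share of members that were lower, 2 of 10, was near that background.

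With the log2 CPM of Ptprc as a term in the edgeR fit, Aif1 remained higher in knockout tumors (log2 fold change 0.49 ± 0.12 SE; adjusted p = 0.0158). Mrc1 (-1.12 ± 0.32; adjusted p = 0.0430), Cd68 (-0.46 ± 0.14; adjusted p = 0.0441) and Msr1 (-0.44 ± 0.13; adjusted p = 0.0331) were lower. In that fit 4.36% of all genes tested were higher and 5.69% lower. C1qc (0.06 ± 0.19), C1qa (-0.16 ± 0.21) and C1qb (-0.18 ± 0.24) were close to 0 and not called, and Adgre1 (-0.35), Csf1r (-0.77) and Lyz2 (-0.45) were not called either. Genotype accounted for 55.1% of the variance of the Ptprc term, and Ptprc itself did not overlap between groups, so this fit separates genotype and leukocyte RNA only in part.

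**Figure D4:**
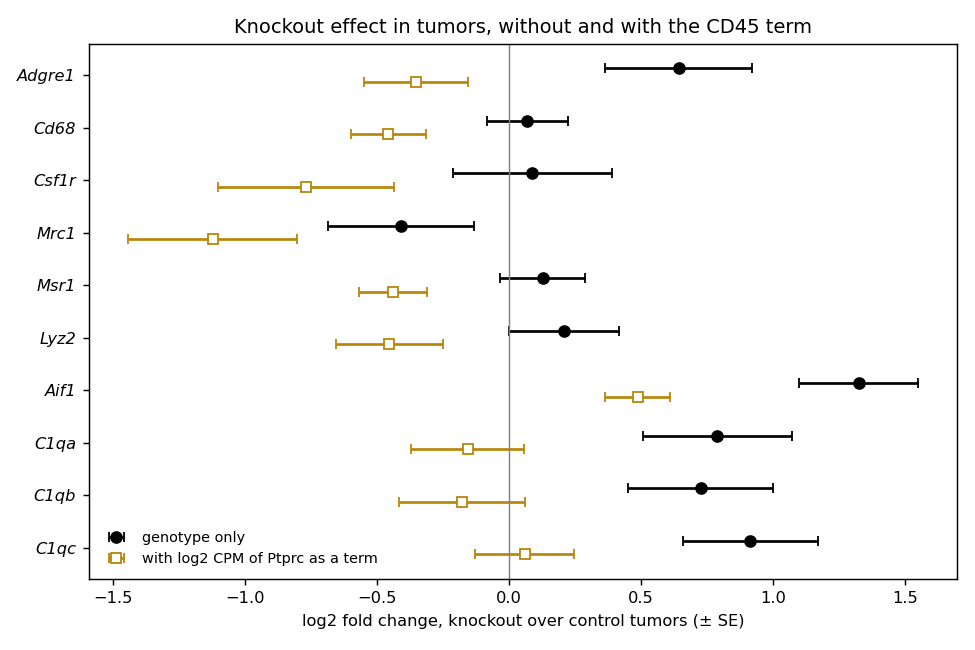
Log2 fold change of each member between knockout and control tumors (horizontal axis; bars are the SE), from the fit with genotype only (filled circles) and with the log2 CPM of Ptprc as a further term (open squares). Aif1 lies above 0 in both fits (1.32 and 0.49), while C1qa, C1qb and C1qc move from 0.79, 0.73 and 0.91 to -0.16, -0.18 and 0.06.

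Of 20 further macrophage markers tested, 7 rose, 2 fell and 11 did not pass, with a median log2 fold change of 0.42, where 18.1% of all genes tested rose and 19.0% fell. The phosphatidylserine receptor Timd4 (1.24 ± 0.21 SE), the IgG receptors Fcgr4 (1.29 ± 0.23) and Fcgr1 (0.75 ± 0.16) and the signalling adaptor Tyrobp (0.86 ± 0.15) were among those that rose. Their edgeR adjusted p-values lay between 0.000135 for Timd4 and 0.00170 for Fcgr1. Timd4 was scarce, with means of 3.81 CPM in knockout and 1.62 CPM in control tumors. The 2 that fell were Cd14, the lipopolysaccharide co-receptor (-0.24), and Gpnmb, a transmembrane glycoprotein (-0.34). Unlike the members, both were abundant in purified cells: Cd14 had means of 72.5 CPM in the knockout and 79.0 CPM in control line 1, and Gpnmb 116 and 43.7 CPM. Of the 7 that rose, only Lgmn was abundant there too. It had means of 61.3 CPM in the purified knockout, 105 CPM in control line 1 and 96.2 CPM in control line 2. In purified cells Lgmn was lower in the knockout (log2 fold change -0.71 ± 0.11 SE, edgeR adjusted p = 0.00977). Of 7 transcription factors of the lineage, 5 rose and 0 fell. The 5 were Nr1h3, the liver X receptor (1.24 ± 0.21), Cebpa (0.52 ± 0.11), Irf8 (0.50 ± 0.11), Spi1 (0.48 ± 0.17) and Maf (0.47). Cebpa had means of 16.9 CPM in knockout and 11.8 CPM in control tumors. In purified cells it still had 8.78 CPM in the knockout, 7.42 CPM in control line 1 and 6.36 CPM in control line 2. Irf8 had 6.13, 2.00 and 3.95 CPM there, against 86.0 and 61.1 CPM in knockout and control tumors.

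Among 10 genes of the CSF axis and of monocyte recruitment, 4 rose and 2 fell. Of all genes tested, 18.1% rose and 19.0% fell, so the share that fell was near that background. The monocyte chemokine receptor Ccr2 (log2 fold change 0.71 ± 0.18 SE) and the chemokine Ccl7 (0.67 ± 0.16) rose. The chemokine Ccl2 (-0.65 ± 0.14) and Il34, a ligand of the CSF1 receptor (-0.52 ± 0.09), fell. Il34 had 16.1 CPM in knockout and 23.2 CPM in control tumors (means), and 18.2 and 25.4 CPM in purified cells of the knockout and of control line 1, so it was as abundant where leukocyte markers were nearly absent. Ccl2 had means of 88.9 CPM in knockout and 141 CPM in control tumors. Purified cells still had 33.2 CPM of Ccl2 in the knockout, 34.3 CPM in control line 1 and 18.3 CPM in control line 2.

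Of 16 other complement genes tested, 4 rose and 4 fell, near the 18.1% and 19.0% of all genes tested. C1ra and C1s1 encode the proteases that C1q carries in the C1 complex. C1ra had 98.6 ± 14.9 CPM in knockout tumors and 171 ± 17.8 CPM in control tumors (SD), which is -0.79 ± 0.09 on the log2 scale (SE; adjusted p = 1.3e-06 in edgeR). C1s1 had 196 ± 32.3 CPM against 356 ± 45.1 CPM, which is -0.85 ± 0.10 on the log2 scale (SE; adjusted p = 2.72e-06 in edgeR). Both genes therefore fell in the tumors in which C1qa and C1qc rose.

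Unlike C1q, C1ra and C1s1 were abundant in purified cells, at 157 and 191 CPM in the knockout and 254 and 315 CPM in control line 1 (means of 2 libraries). Their log2 fold changes between purified knockout and control cells were -0.56 ± 0.20 and -0.70 ± 0.23 (SE), which did not pass the test (edgeR adjusted p = 0.156 and 0.124). Serping1, the C1 inhibitor (0.47 ± 0.11 SE), and Cd59a, an inhibitor of the membrane attack complex (1.52 ± 0.34), rose in knockout tumors. So did the classical pathway protease C2 (1.07). Cd59a was scarce, with means of 1.62 CPM in knockout and 0.572 CPM in control tumors. Serping1 was abundant in purified cells too, with means of 119 CPM in the knockout, 30.1 CPM in control line 1 and 13.7 CPM in control line 2. That difference between knockout and control, 2.45 ± 0.50 on the log2 scale, did not pass the test (edgeR adjusted p = 0.0527). The central component C3 fell (-0.84), with means of 64.4 CPM in knockout and 116 CPM in control tumors. Purified cells had 40.8 CPM of C3 in the knockout, 38.2 CPM in control line 1 and 77.7 CPM in control line 2.

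Scavenger and lectin receptors and genes of alternative activation were called at shares near those of all genes tested, of which 18.1% rose and 19.0% fell. Of 7 scavenger and lectin receptors tested, the fatty acid receptor Cd36 rose (0.49 ± 0.13 SE) and the lectin Clec4n fell (-0.68 ± 0.18). Of 5 genes of alternative activation, Il10 rose (1.06 ± 0.27) and Arg1, arginase, fell (-1.25 ± 0.32). Il10 was scarce, with means of 1.36 CPM in knockout and 0.654 CPM in control tumors. Arg1 had 36.8 ± 19.1 CPM against 87.9 ± 22.7 CPM (SD). Of 9 genes of classical activation, 3 rose and 0 fell, namely Cd40 (0.88 ± 0.15), Tnf (0.68 ± 0.20) and Cxcl10 (0.52 ± 0.14). Cxcl10 had means of 46.9 CPM in knockout and 33.0 CPM in control tumors and was also abundant in purified cells. There it had means of 53.7 CPM in the knockout, 22.7 CPM in control line 1 and 13.4 CPM in control line 2. It was higher in purified knockout cells (log2 fold change 1.58 ± 0.28 SE, edgeR adjusted p = 0.0210).

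Purification removed nearly all of the members' RNA in both lines. In the knockout line 10 of 10 members were higher in tumors than in purified cells, where 31.1% of all genes tested were higher. The log2 differences ran from 6.13 for Mrc1 to 9.20 for Msr1, with a median of 8.21. In control line 1 all 10 were higher too (30.2% of all genes tested), from 4.88 for Mrc1 to 6.32 for Adgre1, with a median of 6.13. All of these calls had edgeR adjusted p-values of at most 0.000341.

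Relative to the tumor mean, purified knockout cells stood at 0.170% for Msr1 to 1.47% for Mrc1, with a median of 0.345%. Purified cells of control line 1 stood at 1.25% for Adgre1 to 3.50% for Mrc1, with a median of 1.46%. Ptprc was left at 0.276% and 1.45%. Cd68 was left at close shares in both, 1.43% in the knockout and 1.40% in control line 1, while each of the other 9 members was left at a lower share in the knockout. The sums of the leukocyte markers were 1.38 to 2.42 CPM in purified knockout cells, 5.70 to 7.04 CPM in control line 1 and 2.49 to 6.32 CPM in control line 2. The part of carried-over leukocytes in the purified values was not tested.

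Among purified cells, 2 of the 10 members were lower in the knockout than in the control lines and 0 were higher, where 2.29% of all genes tested were lower and 2.26% higher. Msr1 had 0.229 and 0.290 CPM in the knockout, 2.06 and 1.91 CPM in control line 1 and 2.42 and 0.831 CPM in control line 2. Msr1 differed by -2.76 ± 0.62 on the log2 scale (SE; adjusted p = 0.0398 in edgeR). Lyz2 had 2.48 and 2.76 CPM in the knockout, 8.36 and 11.6 CPM in control line 1 and 14.5 and 5.13 CPM in control line 2, a difference of -1.91 ± 0.41 on the log2 scale (SE; adjusted p = 0.0352 in edgeR).

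The knockout libraries were the lowest for Msr1 and Lyz2, and also for Mrc1 and C1qb, which were not called. The share of all genes with such an order was not counted. The counts were small: Msr1 summed to 11 expected counts over both knockout libraries. Msr1 lost the call when any 1 of 5 libraries was left out (both knockout libraries, both of control line 1, and replicate 1 of control line 2). Lyz2 lost it in 3 of 6 such fits, without either knockout library or without replicate 2 of control line 1. Against control line 1 alone, 7 of the 10 members were lower, where 12.8% of all genes tested were. The other 8 members had, against both control lines, negative values from -0.74 (Aif1) to -1.78 (Cd68) and did not pass. Mrc1 (-1.72 ± 0.49 SE; edgeR adjusted p = 0.0827) was nearest to the threshold, and the authors' deposited table gives it an adjusted p of 0.0052 and a log2 fold change of -1.43 with the sign turned.

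Cd68 differed between the control lines. Purified cells of control line 2 had 4.003 and 5.17 CPM, those of control line 1 had 0.606 and 0.847 CPM, and those of the knockout 0.918 and 0.629 CPM. In culture, where no host cells are present, control line 2 again had the highest value, 4.85 CPM against 0.987 CPM in control line 1 and 1.38 CPM in the knockout. In purified cells the difference between the control lines was 2.65 ± 0.46 on the log2 scale (SE; edgeR adjusted p = 0.00225). Cd68 was the single member called in that comparison, where 6.73% of all genes tested were higher and 9.01% lower.

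In culture every member had at least 1 expected count in each library, and levels ran from 0.0516 CPM (Aif1, Csf1r and C1qb in control line 2) to 4.85 CPM (Cd68 in the same line). C1qa had 26 expected counts in the knockout, 16 in control line 1 and 4 in control line 2. With 1 library per line these are values with no test. Apart from Cd68, the cultured lines held at most 3.02 CPM of any member (Lyz2 in control line 1).

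**Figure D5:**
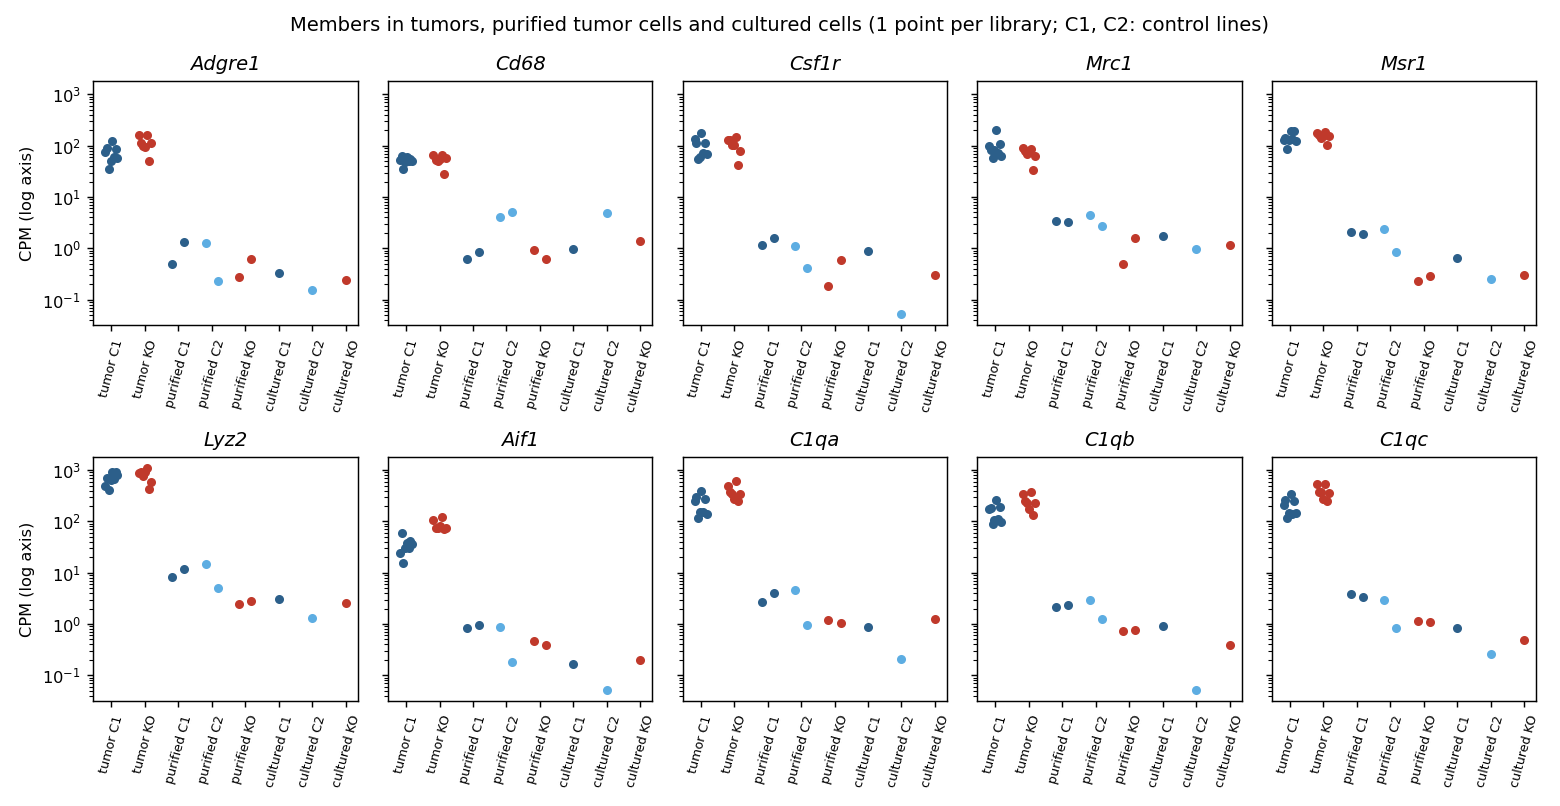
CPM of each member (vertical axis, log scale) in every library of the 3 settings; points are libraries, C1 and C2 are the control lines and KO the knockout. All 10 genes lie far higher in tumors than in purified or cultured cells, and Cd68 stands apart in control line 2 with 4.003 to 5.17 CPM in purified and cultured cells.

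For Msr1 and Lyz2 the difference between knockout and control libraries was not the same in tumors and in purified cells. In the test of that difference against control line 1, the value was 3.02 ± 0.79 for Msr1 (log2, SE; edgeR adjusted p = 0.0228) and 2.14 ± 0.57 for Lyz2 (edgeR adjusted p = 0.0275). These were 2 of 10 members called, where 4.82% of all genes tested were called in that direction. Ptprc differed in the same way (2.40 ± 0.61, edgeR adjusted p = 0.0190), and 3 of the 4 leukocyte markers, Ptprc among them, were called. The part of carried-over leukocytes in this difference was not tested. The purified knockout means of Msr1 and Lyz2, 0.260 and 2.62 CPM, were near those of the cultured knockout library, 0.296 and 2.61 CPM. Neither gene changed past the threshold in tumors, so the difference came with the lower values of the purified knockout cells, and both calls were lost in each of the 4 fits that left out a purified library. C1qc (2.57 ± 0.85; edgeR adjusted p = 0.0682), Aif1 (2.40), C1qa (2.34) and C1qb (2.31) had values of like size that did not pass, and Cd68 was at -0.02.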

How the data were processed

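Libraries were mRNA-enriched and sequenced on an Illumina platform, per the labels' protocols. FastQC, STAR, RSEM and DESeq2 and the mm10 genome are named in the submitters' processing notes, and versions are not given in the sources used here. The authors deposited an RSEM table per library with an expected count (an estimated count of reads per gene, not scaled between libraries), TPM and FPKM, per the file headers. They also deposited 3 DESeq2 tables with log2 fold changes, p-values, a score (the Wald statistic) and a signal (the average normalised count), per the file headers. The direction of those tables was read from Sun1, which is positive in all 3, so their signs were turned. FPKM was not used, and TPM only compares levels between genes.

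Expected counts were rounded and fitted with edgeR 4.0.16 in R 4.3.3 (TMM scaling, filterByExpr with minimum count 10 and minimum total 15, robust quasi-likelihood F test, two-sided, Benjamini-Hochberg over all genes tested, threshold 0.05). Each comparison used its own libraries. Each SE is the estimate divided by the root of its F statistic. CPM is scaled by TMM over all 24 libraries, with a prior count of 2 for log2 CPM. Genes named beside the members are the 4 with the smallest p among called genes of each list and the 5 most like C1qb and Adgre1. Maf, C2, C3, Cd14, Dcn, Dpt, Gpnmb, Krt18, Lgmn and Plac8 were added after their values were seen. The members and lists were chosen with earlier results of these data known. Strandedness of the counting is not given in the sources used here. Of 52 pairs of libraries of 1 group, the lowest chi-square per gene was 7.38, so none was a mere re-sequencing of another library. The measure covers counting noise only, so it cannot tell whether separate libraries came from 1 tumor or pool. On simulated data with the tumor design, the share recovered was 70.1% at a 1.5-fold change, 89.6% at 2-fold and 97% at 4-fold. With the purified design it was 16.4%, 77.6% and 89.4%. The changed genes were drawn at random from all genes tested, each with its own spread, so these shares need not hold for the members. Alternatives were DESeq2 1.42.0 and its size factors, no filter, a replicate block, a Ptprc term, all libraries in 1 fit, control line 1 only, and leaving out libraries.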

Additional observations from a re-analysis of the deposited data

Results flagged for a closer look

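Of 20 groups of tumors (10 members in 2 genotypes) examined for a sample far from the others, 2 had one, and chance gives about 1 in 20. Cd68 in knockout tumor 6 was 28.4 CPM, well below the other 6 knockout tumors, which had 51.2 to 67.0 CPM. That tumor was the lowest knockout tumor for all 10 members, while its Ptprc level of 156 CPM was also the lowest of its group. Mrc1 in control tumor 5 was 204 CPM, against at most 106 CPM in the other control tumors. That tumor was the highest control tumor for 8 members. Without it the Mrc1 difference between knockout and control tumors was -0.15 on the log2 scale, against -0.41 with all tumors.

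The difference between knockout and control line 1 was not the same in tumors and purified cells for Msr1 (3.02 on the log2 scale) and Lyz2 (2.14), by a test of that contrast. The leukocyte gene Ptprc differed in the same way, and the part of carried-over leukocytes was not tested. The Msr1 value rests on 11 expected counts in the purified knockout libraries and 70 in those of control line 1, and the Lyz2 value on 111 and 358.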

How the results depend on the processing

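No alternative changed the direction or the calls of the members between tumors and purified cells in either line.

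For tumors, Aif1 stayed called in 21 of 21 alternatives. Same-numbered tumors did not deviate together (correlations from -0.113 to 0.223, 2 of 7 pairs over 0.1, 0 of 7 knockout tumors most like their own number), and with the replicate block 5 members were called higher. With the Ptprc term 599 genes were higher and 783 lower, 1 member was higher and 3 lower, and the log2 fold change turned to -0.35 for Adgre1, -0.46 for Cd68, -0.77 for Csf1r, -0.44 for Msr1, -0.45 for Lyz2, -0.16 for C1qa and -0.18 for C1qb. Leaving out 1 tumor gave 2 to 5 members higher, with 5 without knockout tumor 6 or control tumor 5, and Csf1r from -0.014 to 0.27 (-0.0037 without control tumor 3).

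For purified knockout cells the counts of genes higher and lower were 454 and 454 with no filter, 553 and 586 with DESeq2, 156 and 147 with the replicate block, and 1337 and 1559 against control line 1 only. Members called lower were 0 with the replicate block and 7 against control line 1 only, where Cd68 turned to 0.097. Leaving out 1 library gave 41 to 262 genes higher, 31 to 278 lower and 0 to 2 members lower.

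For control line 2 against control line 1, leaving out 1 library gave 290 to 1001 genes higher, 501 to 1214 lower and 0 to 1 member lower (C1qc, without replicate 1 of control line 2). It turned the sign of Adgre1 (-1.96 to 0.60, and 0.48), Lyz2 (-0.97 to 0.54, and 0.22), C1qa (-1.77 to 0.51, and 0.074), Mrc1 (-0.29 to 0.45), Msr1 (-1.25 to 0.30), Aif1 (-2.25 to 0.0036) and C1qb (-0.87 to 0.36). Cd68 stayed called throughout (2.44 to 2.91).

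For the difference between settings, 1 member was called with no filter. Leaving out 1 library gave 230 to 357 genes higher, 316 to 485 lower and 0 members higher, with Cd68 from -0.29 to 0.27 (0.17 in another). In fits that leave 1 library in a group, that library is assumed to vary like the others. The cause of these changes was not tested. With 2 purified libraries a line and few counts of each member, depth limits what purified cells can show.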
